A study of Mus musculus with 10 samples.

Results

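The lysosome and autophagy genes described here are 43 mouse genes chosen by name: lysosomal hydrolases and their cofactors, proteins of the lysosomal membrane, subunits of the V-ATPase and core autophagy genes. All 43 had a row among the 52550 genes of the count table, and 42 reached a sum of at least 10 counts across the 10 libraries, against 20269 genes in all. Map1lc3b, which encodes the LC3B protein of the autophagosome membrane, had 0 counts in every library and was not tested. The member with the fewest counts among the 42 was Ctsh, with 22 over the 10 libraries.

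RNA-seq measured bone marrow cells of wild-type C57BL/6 mice of 8 to 20 weeks, enriched for hematopoietic stem and progenitor cells (HSPCs), transformed with a retrovirus for the leukemia fusion protein MLL-AF9 and grown in medium with hematopoietic cytokines. MLL-AF9-i139 cells, treated and untreated, carried tetR-KRAB, a repressor that doxycycline (DOX) releases, and a DOX-inducible miR-139 vector. They came as 3 clones picked as single colonies, each with 1 library without DOX and 1 with 5 µg/mL DOX. DOX was given for 48 h in clones 1 and 2 and for 72 h in clone 3. No culture time is given for the untreated MLL-AF9-i139 libraries, so whether they match the DOX libraries in time is not known. MLL-AF9-ieGFP cells, with inducible eGFP in place of miR-139, were 1 clone with libraries at 48 h and 72 h, each without and with 5 µg/mL DOX. The repressor is described for MLL-AF9-i139 and is not repeated for MLL-AF9-ieGFP. The libraries of the 1 MLL-AF9-ieGFP clone show no spread between clones, and in MLL-AF9-i139 the time and the clone cannot be told apart.

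The lysosome is the acidic compartment in which proteins, glycans, lipids and the cargo of autophagosomes are broken down. Its hydrolases work at the low pH that the V-ATPase, a proton pump in its membrane, maintains. Many genes of this compartment carry the CLEAR element in their promoters, which the MiT/TFE transcription factors (TFEB, TFE3 and MITF) bind, and myeloid cells, above all macrophages, are rich in lysosomes. In autophagy, receptors such as p62 link cargo to the LC3 and GABARAP proteins of a growing membrane that later fuses with the lysosome.

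The agent placed under DOX control in the 3 clones is a microRNA with 2 mature strands, shown here because their seeds (bases 2 to 8, in capitals) were searched for in the members below. Both are on the plus strand of mouse chromosome 7 (RefSeq, GRCm38), at chr7:101475382-101475403 and chr7:101475418-101475439.
mmu-miR-139-5p: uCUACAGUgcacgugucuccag
mmu-miR-139-3p: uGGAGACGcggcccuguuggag
The libraries measured long RNA, and the row of Mir139 held 0 counts in all 10, so the induction of miR-139 could not be checked in them.

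Total counts ranged from 35133308 to 47089725 per library. Markers of the labelled cells were present: Kit (143 and 144 on average in CPM, the reads of a gene scaled to a common library size, without and with DOX in MLL-AF9-i139), Fcgr3, Ly6c2, Ptprc, Hoxa9 and Meis1 were all measured, while Itgam held 6 counts in total, with 68.7% of its exon bases shared with another gene. Of the markers of other cell types, the macrophage genes C1qa and C1qc and the erythroid gene Hbb-bs were at 0. Others of these lists were measured, such as Cd14 (2010 counts), Adgre1 (977) and Csf1r (737) of macrophages and Nkg7 (9782) and Cd79a (377) of lymphoid cells. A count of 0 alone does not show absent expression in these libraries, as described below for Map1lc3b and Atp6v0c. MLL-AF9-i139 clone 3 with DOX stood apart from the other libraries of its group: its counts differed from those of clones 1 and 2 with a chi-square per degree of freedom of 112 and 96.9, against 24.8 between clones 1 and 2. Counts of calls in MLL-AF9-i139 are therefore also given without clone 3, in the test without a block.

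With DOX, most lysosome and autophagy genes were higher in the MLL-AF9-i139 clones. The share of all counts that fell on the 43 genes was 0.388%, 0.406% and 0.350% without DOX in clones 1, 2 and 3, and 0.624%, 0.611% and 0.408% with DOX. The untreated MLL-AF9-ieGFP libraries of 48 h and 72 h had shares of 0.382% and 0.368%, and the treated ones 0.388% and 0.377%. The 2 MLL-AF9-i139 libraries of 48 h with DOX thus stood above all others, and clone 3 with DOX lay just above the highest untreated library. Since these are bulk samples, more cells of a type and more RNA per cell cannot be told apart.

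The log2 fold change with DOX in MLL-AF9-i139 was above 0 for 36 of the 42 genes, against 51.2% of all genes tested. Its median was 0.48 over the members and 0.01 over all genes. The lowest of the 3 DOX libraries was above the highest untreated one for 15 members, and the highest DOX library was below the lowest untreated one for 2; over all genes tested these shares were 12.0% and 12.8%. In edgeR's quasi-likelihood test without a clone block, 0 of 42 members passed an adjusted p of 0.05 (background 0.0624% of 19223 genes), with adjusted p from 0.0845 to 0.974. At an unadjusted p under 0.05, 27 members were higher and 1 was lower in that test (background 11.4% higher and 9.22% lower). DESeq2 called 13 members, all higher (background 8.09% in either direction and 5.03% higher), and gave no adjusted p for Ctss, Ctsh and Map1lc3a. In all, 6354 of the 19223 genes had none, and they count as not called in this background.

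The libraries with and without DOX share their clones, and in a fit with a block for the clone 19 members rose, 1 fell and 22 did not pass (edgeR, adjusted p under 0.05). The background in that fit was 12.4% of all genes tested, with 7.05% higher and 5.33% lower. The verbs "rose" and "fell" are used below for calls of this blocked test, since in the test without the block no member was called. Log2 fold changes and SE are from the fit without the block unless stated, also where they stand beside an adjusted p of the blocked test. Without clone 3, the test without a block called 33 members, 31 higher and 2 lower (background 21.7%), and without clone 1 or clone 2 it called 0. The calls thus turned on the block and on clone 3, while the median of the members stayed at 0.39 or more in all 3 of these fits. The backgrounds of the blocked test and of the test without clone 3 also hold for the calls of each class and list below.

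**Figure D1:**
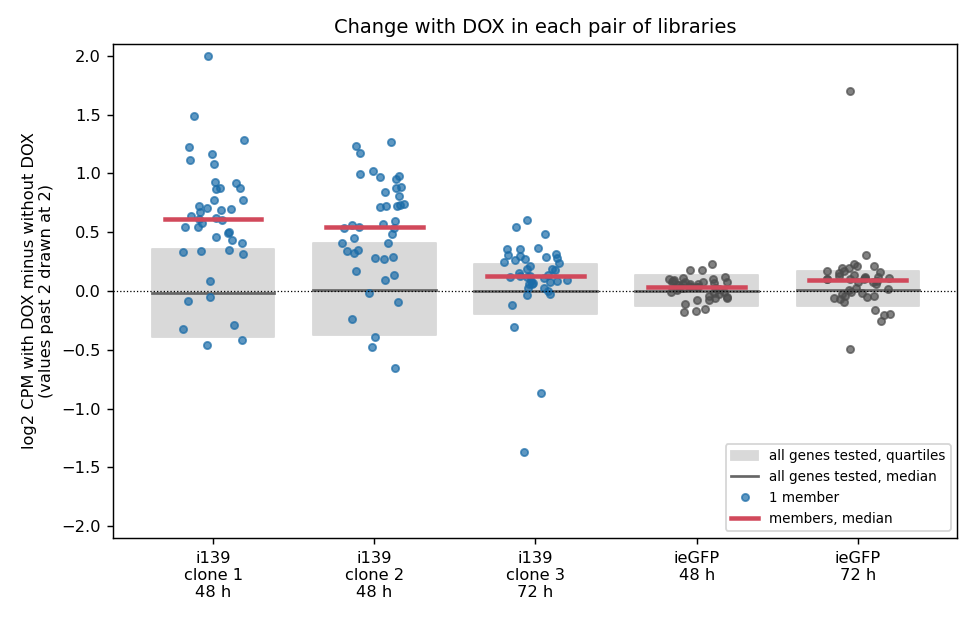
Difference in log2 CPM (DOX minus no DOX, y axis) of each of the 42 genes (points) in each pair of libraries (x axis). Red lines are medians of the members, and gray boxes and lines are the quartiles and the median of all 19223 genes tested: the members' medians were 0.62, 0.54 and 0.13 in clones 1, 2 and 3 and 0.04 and 0.09 in MLL-AF9-ieGFP at 48 h and 72 h.

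The change was smaller in clone 3. The median difference of log2 CPM was 0.62 in clone 1, 0.54 in clone 2 and 0.13 in clone 3, beside -0.02, 0.01 and 0.00 for all genes tested. Clone 3 had a lower difference than both other clones for 37 of 42 members (background 37.7%). That background also holds genes that were lower with DOX, for which a smaller change is a higher difference, so it is not a like measure. In each of the clones 36 of the 42 differences were above 0, and 33 members were higher in all 3 (background 27.2%) and 3 lower in all 3 (background 26.5%). The quartiles of all genes tested also lay closer to 0 in clone 3, from -0.19 to 0.23, than in clone 1, from -0.39 to 0.36.

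Markers of myeloid cells moved in the same libraries, and their part in the results was not tested. Of 12 neutrophil genes tested, 4 rose with the clone as a block and none fell (background 7.05% higher and 5.33% lower). The 4 were Mpo, Csf3r, Ngp and Lcn2, which encode granule proteins and the G-CSF receptor. The summed level of the 13 listed genes ranged from 2120 to 3275 CPM without and from 2893 to 5146 CPM with DOX in MLL-AF9-i139, while MLL-AF9-ieGFP had 2365 to 3032 CPM untreated and 2666 to 3934 CPM treated. Of 9 monocyte and macrophage genes tested, Csf1r rose (log2 fold change 1.36) and Ccr2 fell (-1.54), at summed levels of 9.38 to 11.9 CPM without and 8.61 to 26.1 CPM with DOX. Of the 6 MLL-AF9-i139 libraries, clone 3 with DOX had the highest neutrophil sum (5146 CPM) and the lowest monocyte and macrophage sum (8.61 CPM). Without clone 3, 4 neutrophil genes were called higher and 1 lower, and 3 monocyte and macrophage genes were called higher and 1 lower (edgeR without a block). With the clone as a block, no erythroid, megakaryocyte or lymphoid gene of the 6 tested was called. Their summed levels were at most 4.13 CPM for the first list and 54.3 CPM for the lymphoid one. Without clone 3, 1 lymphoid gene was called lower (edgeR without a block). Of 6 progenitor genes tested, Fcgr3 rose (1.37) and Hoxa9 fell (-0.35), and the other 4, Kit among them with a log2 fold change of 0.03 (SE 0.11), did not pass. Without clone 3, 2 progenitor genes were called higher and 2 lower in the test without a block. The background of that test, for all marker lists here, was 21.7% of all genes tested in either direction.

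**Figure D2:**
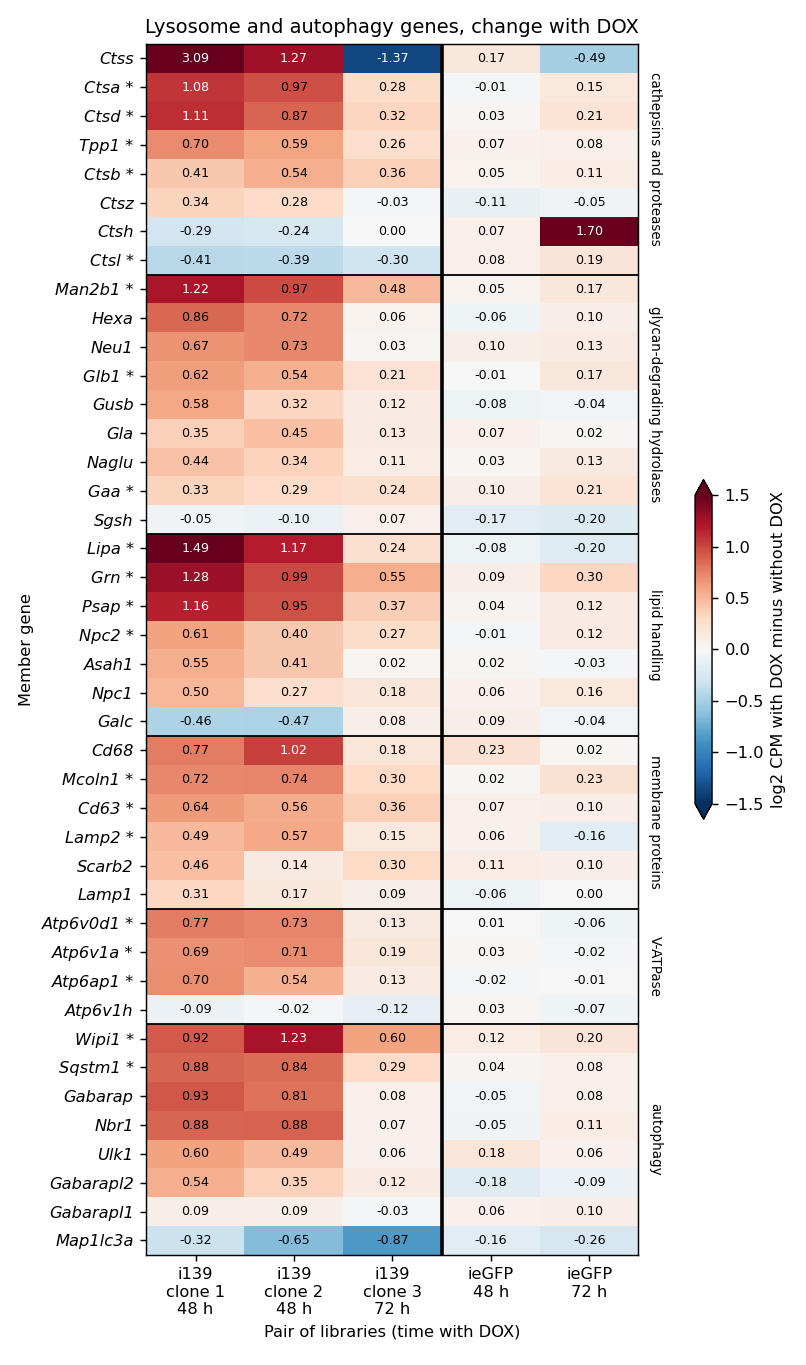
Difference in log2 CPM (DOX minus no DOX, color and number) of the 42 genes (rows, grouped by role) in 5 pairs of libraries (columns). Asterisks mark the 20 genes with an adjusted p under 0.05 with the clone as a block. Most rows are red in clones 1 and 2, paler in clone 3 and near white in MLL-AF9-ieGFP. Ctss and Ctsh, with 95 and 22 counts in total, take extreme values on few reads.

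Among the cathepsins and other proteases, 4 of 8 rose and 1 fell, with a median log2 fold change of 0.51. Without clone 3, 5 were called higher and 1 lower. Ctsa, a carboxypeptidase that also protects the hydrolases Neu1 and Glb1 in a complex, had 95.4, 104 and 75.0 CPM without DOX in clones 1, 2 and 3 and 201, 203 and 91.1 with DOX. Ctsd, the main aspartic protease of the lysosome, had 70.9, 77.6 and 63.0 CPM without and 153, 142 and 78.6 with DOX. For Ctsd the groups did not overlap, whereas the Ctsa level of clone 3 with DOX lay within the untreated range. Their log2 fold changes were 0.87 (SE 0.29) and 0.84 (SE 0.23), and the adjusted p values were 0.0296 and 0.0287 with the clone block and 0.159 and 0.125 without it.

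Tpp1, a tripeptidyl peptidase, had 64.2, 76.3 and 59.5 CPM without and 105, 115 and 71.2 with DOX, a log2 fold change of 0.55 (SE 0.18), with clone 3 within the untreated range. Ctsb, a cysteine protease, had 129.7, 136 and 107 CPM without and 172, 199 and 137 with DOX, with no overlap and a log2 fold change of 0.46 (SE 0.15). Both rose in the blocked test (adjusted p = 0.0301 and 0.0271). Ctsl, another cysteine protease, was the only member that fell. It had 39.5, 35.0 and 41.8 CPM without and 29.7, 26.7 and 33.8 with DOX, so that every DOX library lay below every untreated one, with a log2 fold change of -0.36 (SE 0.13, adjusted p = 0.0406 blocked, 0.184 unblocked). In clones 1, 2 and 3 the differences were -0.41, -0.39 and -0.30, so unlike most members Ctsl kept the greater part of its change in clone 3. For 8 members, exons of other genes cover at least 10% of the exon bases, among them the called genes Ctsd (34.4%), Ctsl (26.8%), Ctsa (17.4%), Sqstm1 (17.3%) and Ctsb (12.8%), and reads there cannot be told apart between the genes. The bodies of other genes cover 55.7% of the body of Ctsd and 25.7% of that of Ctsa.

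The other 3 proteases did not pass. Ctsz, a carboxypeptidase, had a log2 fold change of 0.22 (SE 0.14). Ctss, a protease of antigen-presenting cells, had 5, 2 and 3 reads without and 59, 7 and 0 with DOX in clones 1, 2 and 3, so its log2 fold change of 2.65 (SE 1.24) rests on 1 library. Ctsh, with 3, 3 and 3 and 2, 2 and 3 reads, could not be judged at this depth.

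Of the 9 glycan-degrading hydrolases 3 rose and none fell, with a median log2 fold change of 0.36. Without clone 3, 7 were called higher. Man2b1, the lysosomal alpha-mannosidase, had 192, 199 and 148 CPM without and 448, 391 and 208 with DOX, a 1.94-fold higher mean. All 3 DOX libraries were above the untreated ones, and the log2 fold change was 0.97 (SE 0.26, adjusted p = 0.0228 blocked, 0.123 unblocked). Glb1, beta-galactosidase, had 98.2, 105 and 83.4 CPM without and 151, 152 and 96.8 with DOX. Gaa, which degrades glycogen in the lysosome, had 151, 167 and 129 CPM without and 189.9, 204 and 153 with DOX. For both genes clone 3 with DOX lay within the untreated range, though above its own untreated library, and the log2 fold changes were 0.50 (SE 0.18, adjusted p = 0.0348 blocked) and 0.30 (SE 0.14, adjusted p = 0.0458 blocked).

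The 6 hydrolases of this class that did not pass included 5 with positive log2 fold changes: Hexa (0.62, the alpha subunit of beta-hexosaminidase), the sialidase Neu1 (0.53), beta-glucuronidase Gusb (0.36), alpha-galactosidase Gla (0.33) and Naglu (0.31), an enzyme of heparan sulfate breakdown. Their adjusted p lay between 0.0573 and 0.0953 with the clone block. Hexa and Neu1 were close to their untreated level in clone 3, with differences of 0.06 and 0.03 against 0.86 and 0.67 in clone 1. Sgsh, a sulfatase of heparan sulfate breakdown, had a log2 fold change of -0.01 (SE 0.15).

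In the class of lipid handling, 4 of 7 members rose and none fell. Without clone 3, 6 were called higher and 1, Galc, lower. Lipa, the acid lipase that frees cholesterol and fatty acids from lipoproteins, had the highest log2 fold change of all members past the threshold, 1.11 (SE 0.33, adjusted p = 0.0366 blocked, 0.135 unblocked). Its levels were 35.2, 32.0 and 28.4 CPM without and 99.0, 72.3 and 33.5 with DOX, so that clone 3 lay within the untreated range. Grn, which encodes progranulin, a secreted and lysosomal protein, had 93.6, 109.7 and 89.5 CPM without and 227, 218 and 131 with DOX. Psap, the precursor of the saposins that present lipids to their hydrolases, had 129, 145 and 129 CPM without and 288, 281 and 167 with DOX. In both genes every DOX library was above every untreated one.

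The log2 fold change of Grn was 0.99 (SE 0.20, adjusted p = 0.0216 blocked, 0.0959 unblocked) and that of Psap was 0.88 (SE 0.20, adjusted p = 0.0271 blocked, 0.105 unblocked). Npc2, which hands cholesterol to Npc1 for export, had 59.7, 67.7 and 56.7 CPM without and 91.1, 89.6 and 68.4 with DOX, again without overlap, and a log2 fold change of 0.45 (SE 0.14, adjusted p = 0.0339 blocked). Npc1 did not pass with a log2 fold change of 0.33 (SE 0.11), nor did the acid ceramidase Asah1 with 0.36 (SE 0.16). Galc, the enzyme that degrades galactosylceramide, had a log2 fold change of -0.25 (SE 0.16), with differences of -0.46, -0.47 and 0.08 in clones 1, 2 and 3.

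**Figure D3:**
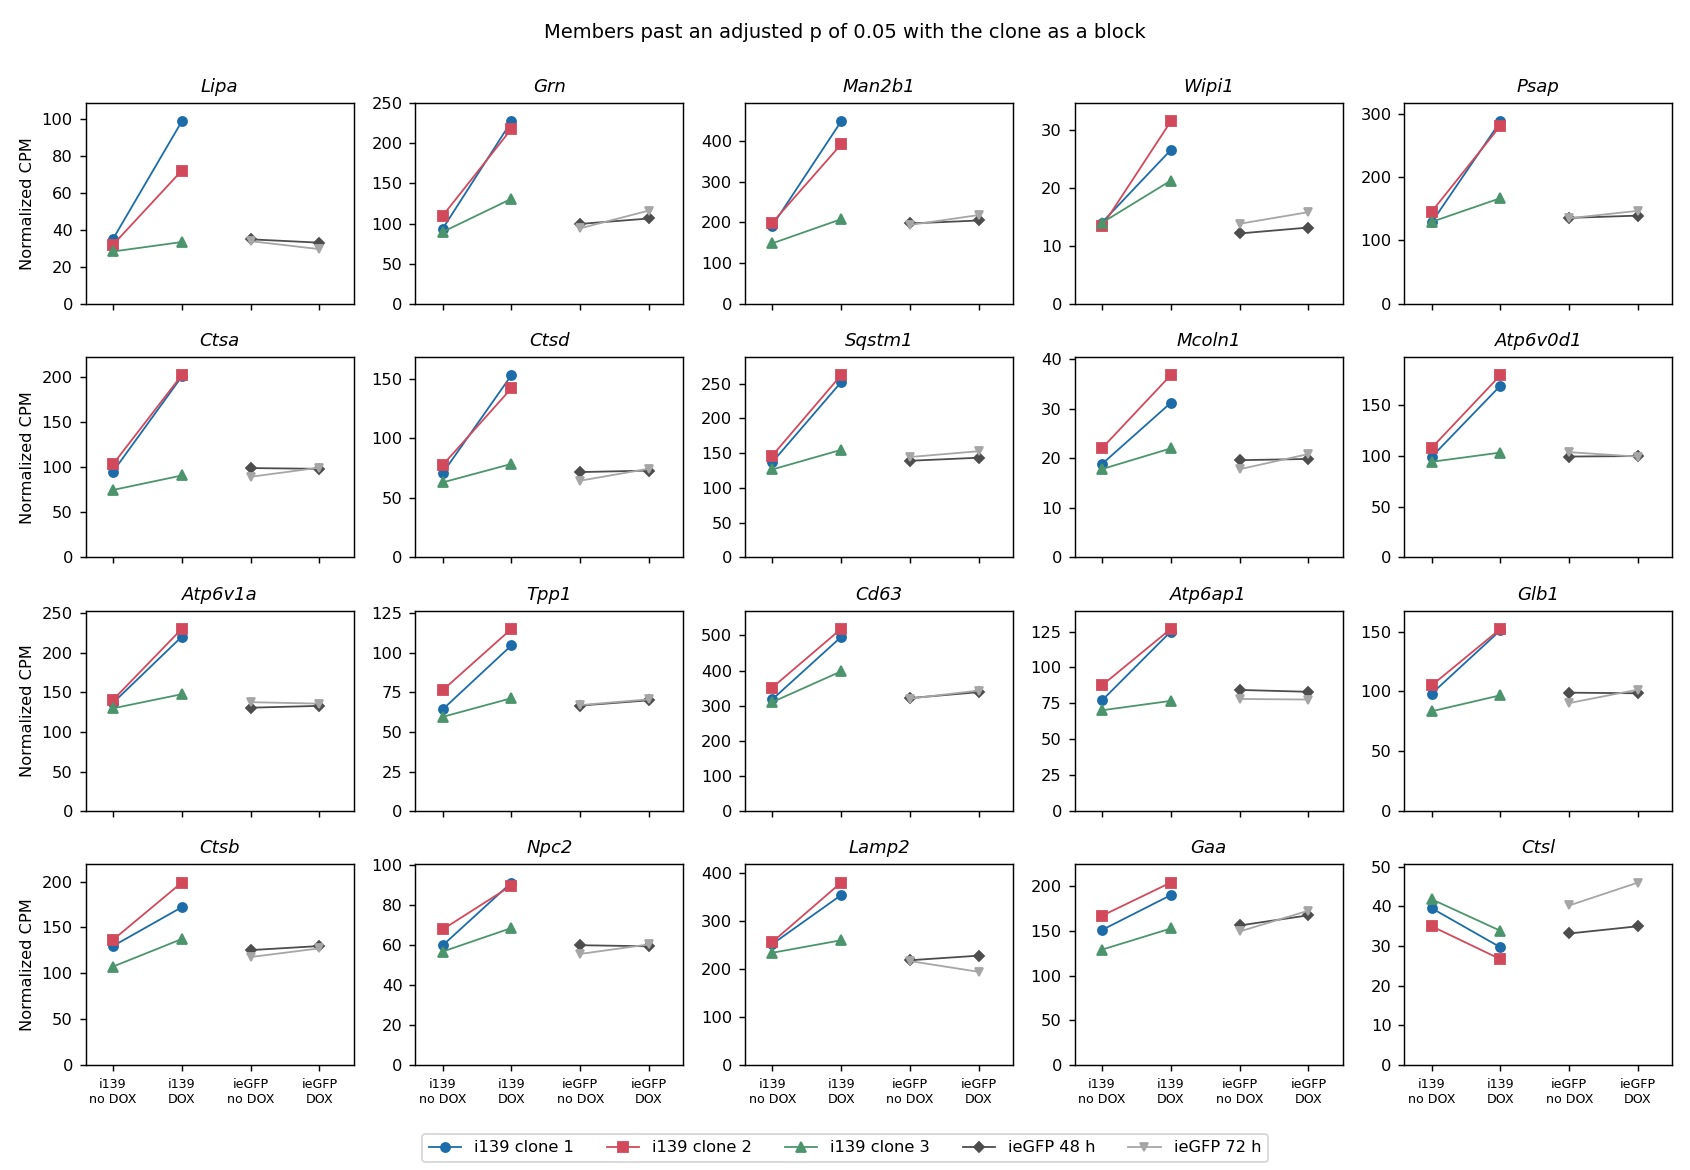
Normalized CPM (y axis, from 0) of the 20 members with an adjusted p under 0.05 with the clone as a block, without and with DOX. Lines join the 2 libraries of a clone or, in MLL-AF9-ieGFP, of a time. In 19 panels all 3 clones go up and clone 3 less than clones 1 and 2, though the clones are close to each other in some, such as Gaa and Ctsb. In the panel of Ctsl all 3 clones go down, and the gray lines of MLL-AF9-ieGFP stay nearly flat.

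All 6 membrane proteins had a positive log2 fold change, with a median of 0.49, and 3 of them rose. Without clone 3, 4 were called higher. Cd63, a tetraspanin of late endosomes and lysosomes, had 318, 352 and 311 CPM without and 496, 519 and 398 with DOX. Lamp2, a heavily glycosylated protein of the lysosomal membrane, had 251, 256 and 233 CPM without and 353, 379 and 259 with DOX. In neither gene did the groups overlap. The log2 fold changes were 0.54 (SE 0.12, adjusted p = 0.0242 blocked, 0.105 unblocked) and 0.44 (SE 0.15, adjusted p = 0.0436 blocked).

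Mcoln1, the calcium channel of the lysosome (TRPML1), had 18.9, 22.1 and 17.8 CPM without and 31.2, 36.8 and 22.0 with DOX, and a log2 fold change of 0.63 (SE 0.19, adjusted p = 0.0294 blocked). Clone 3 with DOX reached 22.0 CPM, just under the highest untreated library with 22.1 CPM. Cd68, a glycoprotein abundant in macrophages, missed the threshold with a log2 fold change of 0.71 (SE 0.24, adjusted p = 0.0530 blocked), as did Scarb2, the receptor that carries glucocerebrosidase to the lysosome (0.32, SE 0.14). Lamp1, the close relative of Lamp2, had a log2 fold change of 0.21 (SE 0.13). Whether Lamp1 and Lamp2 differ in their change was not tested.

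Of the 4 V-ATPase members 3 rose, and 3 were called higher without clone 3. Atp6v1a, the catalytic subunit that splits ATP, had 137, 140.3 and 129.7 CPM without and 220.0, 229.9 and 147 with DOX, with no overlap. Atp6v0d1, which joins the catalytic part to the membrane part, had 99.2, 108 and 94.3 CPM without and 169, 179.8 and 103 with DOX, and the accessory subunit Atp6ap1 had 77.1, 87.5 and 70.2 and 125, 127 and 76.8 CPM. In the last 2 genes clone 3 with DOX lay within the untreated range. The log2 fold changes were 0.57, 0.60 and 0.50 (SE 0.16, 0.20 and 0.19), with adjusted p of 0.0362, 0.0436 and 0.0489 in the blocked test. Atp6v1h, the regulatory subunit of the catalytic part, had a log2 fold change of -0.06 (SE 0.09) and -0.09, -0.02 and -0.12 in clones 1, 2 and 3.

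Among the 8 autophagy genes tested, 2 rose and none fell, with a median log2 fold change of 0.54. Without clone 3, 6 were called higher. Wipi1, which binds the lipid PI3P on forming autophagosomes, had 14.1, 13.4 and 14.0 CPM without and 26.6, 31.6 and 21.3 with DOX. This was the member with the lowest p in the test without the block (adjusted p = 0.0845, 0.0219 blocked, log2 fold change 0.95, SE 0.16), and its difference in clone 3, 0.60, was the highest of all members there. Sqstm1, which encodes the cargo receptor p62, had 137, 147 and 127 CPM without and 252, 262 and 155 with DOX, without overlap, and a log2 fold change of 0.72 (SE 0.19, adjusted p = 0.0281 blocked, 0.120 unblocked).

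The cargo receptor Nbr1 and the LC3 relative Gabarap were just outside the threshold, with log2 fold changes of 0.67 and 0.68 and adjusted p of 0.0544 and 0.0521 in the blocked test. Both were at most 0.08 above their untreated level in clone 3. The kinase Ulk1, which starts autophagy, had a log2 fold change of 0.40 (SE 0.13), Gabarapl2 of 0.36 (SE 0.16) and Gabarapl1 of 0.06 (SE 0.10). Map1lc3a, another LC3 gene, had 21, 17 and 18 reads without and 16, 9 and 9 with DOX, a log2 fold change of -0.66 (SE 0.32). Map1lc3b lies wholly inside the bodies of other annotated genes and shares 0.772% of its exon bases with their exons. Of 677 protein-coding genes that lie inside another gene without sharing an exon base, 98.1% were at 0 counts, against 24.9% of 11686 genes outside all others, so its 0 cannot be read as absent expression.

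Without DOX the members were at similar levels in all cells. Over the 3 MLL-AF9-i139 clones and both MLL-AF9-ieGFP cultures, the highest untreated CPM was 1.23-fold the lowest in the median of the 40 members with at least 100 counts in total, and under 1.5-fold for 39 of them. Sgsh was the exception, with 1.65-fold.

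**Figure D4:**
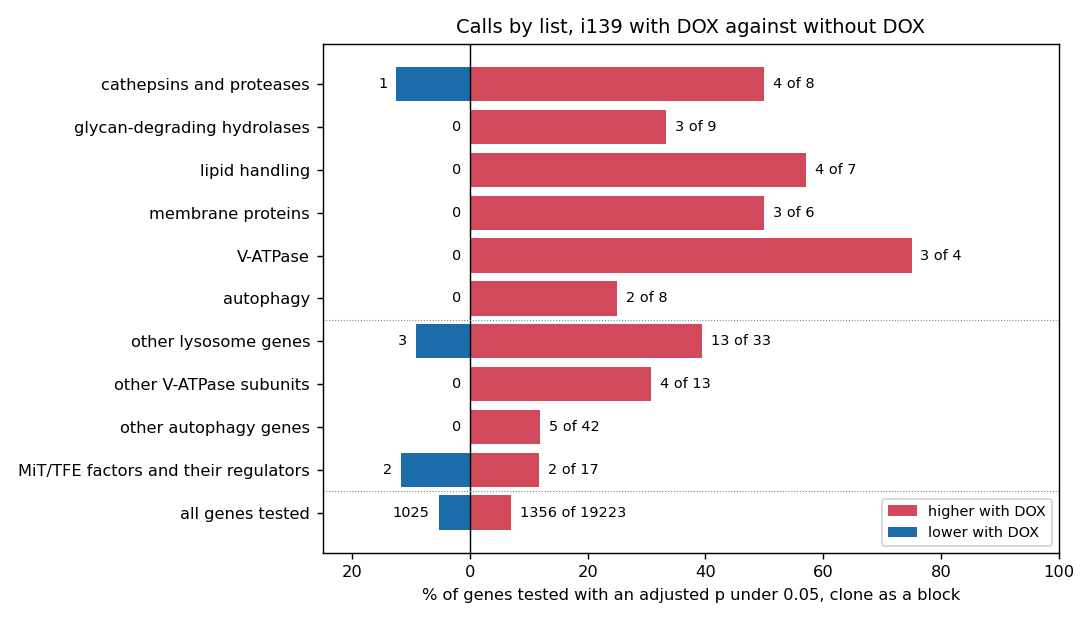
Share of the genes tested in each list (x axis, %) that had an adjusted p under 0.05 with the clone as a block, to the right where they were higher and to the left where they were lower with DOX; numbers are gene counts. The upper 6 bars are the classes of members, followed by other genes of the pathway and all 19223 genes tested. Of the other lysosome, V-ATPase and autophagy genes, 13 of 33, 4 of 13 and 5 of 42 were higher.

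Other genes of the same compartments, from lists that hold none of the members, are given for context. Among 33 other lysosome genes tested 13 rose and 3 fell, with a median log2 fold change of 0.44. Cd164, a sialomucin of endosomes and lysosomes, went from 191 ± 11.4 to 598 ± 261 CPM (SD, n = 3 clones, log2 fold change 1.66) and the protease Ctso from 2.51 ± 0.632 to 6.41 ± 2.30 CPM (1.37). The adjusted p of these genes were 0.0250 and 0.0152 with the clone block and 0.0889 and 0.110 without it. The 3 that fell were Manba (beta-mannosidase, -0.48), Ctsc (the activator of neutrophil serine proteases, -0.72) and Igf2r (a mannose 6-phosphate receptor that sorts hydrolases, -0.41). Without clone 3, 19 were called higher and 4 lower in the test without a block. Ctsf and Galns were at 0 counts. Galns, like Map1lc3b, lies wholly inside other genes, so that its 0 cannot be read as absent expression. Ctsf lies outside all other annotated genes, and why it was at 0 was not tested.

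Of 13 other V-ATPase subunits tested 4 rose and none fell, led by Atp6v0a1 (0.95), Atp6v1f (0.40) and Atp6v0b (0.68), with a median of 0.37. A further listed subunit, Atp6v0c, was at 0 counts though it lies outside all other annotated genes. A 0 thus occurred in a V-ATPase gene that is not nested, and its cause was not tested. Of 42 other autophagy genes 5 rose and none fell, a share of 11.9% in either direction against 12.4% of all genes tested. Since all of these calls were higher, the like background is 7.05% higher, with 5.33% lower. The log2 fold change was above 0 for 34 of the 42 (background 51.2%), with a median of 0.13. The 3 rises of lowest p were the mitophagy receptor Bnip3l (0.69), the lipid scramblase Atg9a (0.77) and the tethering subunit Vps11 (0.50). None of these 88 genes of the lysosome, V-ATPase and autophagy lists was called in the test without the block. Without clone 3 that test called 8 V-ATPase genes higher, and 9 autophagy genes higher and 1 lower.

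The MiT/TFE transcription factors and their regulators moved in both directions, with a median log2 fold change of 0.00. In the blocked test 2 of 17 were higher and 2 lower (background 7.05% higher and 5.33% lower). Without clone 3, 5 were called higher and 4 lower in the test without a block (background 21.7% in either direction). Tfeb had 12.6, 11.5 and 12.9 CPM without and 21.2, 25.8 and 17.4 with DOX and rose (log2 fold change 0.81, SE 0.17, adjusted p = 0.0287 blocked, 0.0959 unblocked). Tfe3 (0.59, SE 0.28) and Mitf (0.23, SE 0.23) did not pass. Tfec, a family member expressed in macrophages, had 114, 102 and 67.7 CPM without and 61.5, 54.6 and 35.2 with DOX and fell, with differences in clones 1, 2 and 3 of -0.89, -0.90 and -0.94 (adjusted p = 0.00915 blocked, 0.125 unblocked). Rragd, a GTPase that recruits MiT/TFE factors and mTORC1 to the lysosome, had 14.6, 21.3 and 14.1 CPM without and 3.40, 5.06 and 10.7 with DOX and fell (-1.38, SE 0.39, adjusted p = 0.0351 blocked), mostly in clones 1 and 2, and the Ragulator subunit Lamtor4 rose (0.39, adjusted p = 0.0352 blocked). These are transcript levels, whereas TFEB and TFE3 are regulated largely by moving between the cytoplasm and the nucleus.

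The promoters of the members were searched for the motif of these factors. Windows from 250 bases before to 50 after the RefSeq transcription start (GRCm38) were given for 37 of the 43 genes. The E-box CACGTG was found in the windows of 12 of these 37 (32.4%), against 10.8% of 12232 genes tested that have a window, and the 8-base core TCACGTGA of the CLEAR element, which contains the E-box, in 6 (16.2%), against 1.82%. Over all 32851 windows of this length the shares were 7.15% and 0.974%. Both motifs read the same on both strands. The 30 bases around each core are shown for these 6 members, with the core in capitals.
Ctsa, chr2:164833749-164833778, plus strand: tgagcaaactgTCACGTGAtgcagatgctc
Ctsa, chr2:164833766-164833795, plus strand: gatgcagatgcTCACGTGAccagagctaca
Ctsd, chr7:142387908-142387937, minus strand: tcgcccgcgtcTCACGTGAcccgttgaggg
Gla, chrX:134601215-134601244, minus strand: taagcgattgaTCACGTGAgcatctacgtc
Gla, chrX:134601182-134601211, minus strand: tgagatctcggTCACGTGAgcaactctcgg
Mcoln1, chr8:3500462-3500491, plus strand: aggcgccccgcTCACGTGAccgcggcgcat
Atp6v0d1, chr8:105566050-105566079, minus strand: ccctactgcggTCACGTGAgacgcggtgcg
Atp6v1a, chr16:44139373-44139402, minus strand: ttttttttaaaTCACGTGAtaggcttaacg
Of these 6 genes 5 rose in the blocked test (background 7.05% of all genes tested). The log2 fold changes of the 6 ranged from 0.33 (Gla, which did not pass) to 0.87 (Ctsa). The E-box without the full core was in the windows of Ctsl, Gaa, Glb1, Lamp1, Naglu and Sgsh, of which 2 rose and Ctsl fell, with a median of 0.26. Among the 24 tested members whose window held no E-box, 11 rose, with a median of 0.55. A rise was thus found with and without the motif in this window, and a match does not show that a factor binds.

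The 3′ untranslated regions (UTRs) of the members were also searched for 7-base matches to the miR-139 seeds, in the longest annotated 3′ UTR of each gene (GENCODE, GRCm38). A match to the miR-139-5p seed, ACTGTAG, was present in 6 of 42 members (14.3%), against 12.7% of 13995 genes tested. A match to the miR-139-3p seed, CGTCTCC, was present in 1 member, Grn, against 3.75% of genes tested. The matches are shown in capitals with 10 bases on each side, with the genome positions of the capitals, because direct microRNA targets are commonly sought by such matches.
Ctsa, chr2:164839619-164839625, plus strand: gaccactaacACTGTAGatgggaaggg
Ctsb, chr14:63145656-63145662, plus strand: tcctctctctACTGTAGtgtcatttct
Neu1, chr17:34935786-34935792, plus strand: aggtgtacgtACTGTAGgtcagaggac
Psap, chr10:60301841-60301847, plus strand: cctctcccttACTGTAGcatttctgtc
Atp6v1a, chr16:44085715-44085721, minus strand: ctttgcccacACTGTAGaacttgagat
Nbr1, chr11:101580938-101580944, plus strand: ttaaattttcACTGTAGaaatgggatg
Grn, chr11:102436566-102436572, plus strand: cctcccctaaCGTCTCCccggcctact
None of these 7 genes had a negative log2 fold change. The 6 with a miR-139-5p match ranged from 0.46 (Ctsb) to 0.88 (Psap), with a median of 0.62, against 0.42 for the 36 members without one. The 1 member that fell, Ctsl, held no match to either seed in its longest 3′ UTR. Over all genes tested the median log2 fold change was -0.01 with and 0.02 without a miR-139-5p match.

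In MLL-AF9-ieGFP, eGFP was under DOX control in place of miR-139, and the comparison with untreated cells gives the background of DOX and of the vector. There, 0 of 42 members passed the test (edgeR, background 0 of 20269 genes), and 0 had an unadjusted p under 0.05, with the lowest at 0.0861. DESeq2 also called 0 members. Both tests took the spread from all 10 libraries, the MLL-AF9-i139 clones included. The median log2 fold change of the members was 0.07, beside 0.01 for all genes tested, and 29 of 42 values were above 0 (background 51.9%). Lipa had 35.0 and 34.0 CPM without DOX at 48 h and 72 h and 33.2 and 29.6 with DOX, Grn 99.6 and 94.1 and 106 and 116, and Man2b1 197 and 194 and 204 and 218. Their log2 fold changes were -0.13 (SE 0.35), 0.20 (SE 0.22) and 0.11 (SE 0.28). Ctsl had 33.2 and 40.2 CPM without and 35.0 and 46.0 with DOX, a log2 fold change of 0.14 (SE 0.17) and thus of the opposite sign to that in MLL-AF9-i139.

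**Figure D5:**
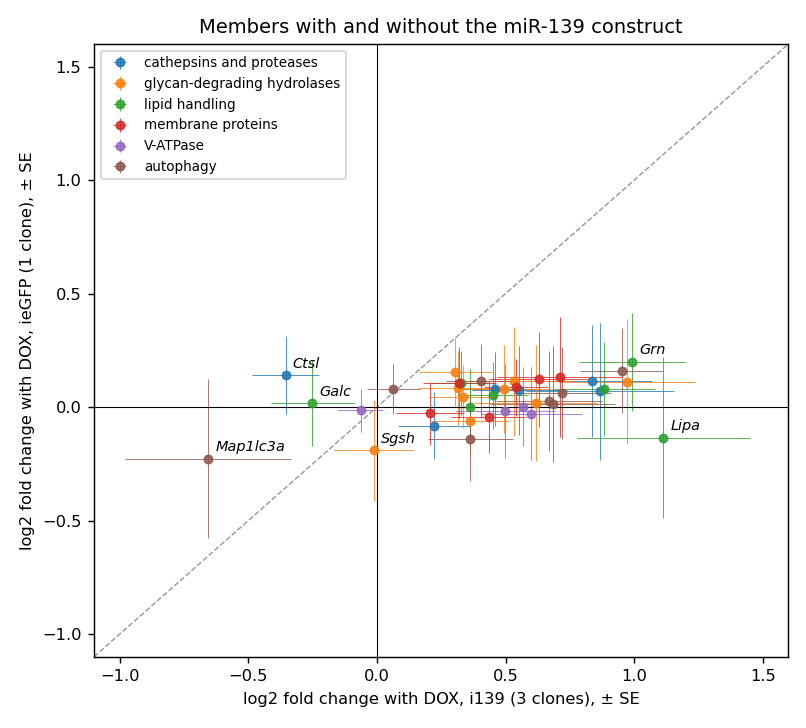
Log2 fold change with DOX of the 40 members with at least 100 counts in total, in MLL-AF9-i139 (x axis, 3 clones) and in MLL-AF9-ieGFP (y axis, 1 clone), with bars of 1 standard error; the dashed line marks equal change. Most members lie to the right of 0 on the x axis and close to 0 on the y axis.

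Whether the change differs between the constructs was tested as the interaction of DOX and construct, in 1 fit of all 10 libraries. The difference of the log2 fold changes (MLL-AF9-i139 minus MLL-AF9-ieGFP) had a median of 0.42 over the members, beside -0.01 over all genes tested, and was above 0 for 36 of 42. No member passed an adjusted p of 0.05 (0 of 42, background 0.00493%), with the clone block (0 of 42, background 0.187%) or with DESeq2 (0 of 42, background 0.405%). DESeq2 gave no adjusted p here for 6696 of 20269 genes, which count as not called. At an unadjusted p under 0.05 there were 12 members with a larger and 1 with a smaller change in MLL-AF9-i139 (background for larger 4.96%). The lowest p was that of Wipi1, with a difference of 0.78 (SE 0.24, adjusted p = 0.527, edgeR), and Lipa had 1.23 (SE 0.46) and Ctsl -0.51 (SE 0.22, adjusted p = 0.538). Without clone 3, 22 members were called in this test (background 2011 of 19753 genes). Its calls thus turned on that clone, over all genes as well as in the members. MLL-AF9-ieGFP was 1 clone, and a difference between constructs cannot be told apart from one between clones.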

How the data were processed

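Gene counts of the 10 libraries were used as deposited by the authors, who mapped reads to GRCm38 with STAR and, by GENCODE gene models, summed them over genes with featureCounts. The 14 columns of other samples in the tables were not used. Counts were tested with edgeR (4.0.16, quasi-likelihood, TMM factors, genes with at least 10 counts in total, Benjamini-Hochberg adjustment over all genes tested), and with DESeq2 (1.42.0) as an alternative, in R 4.3.3. The 6 MLL-AF9-i139 libraries were fitted on their own, and MLL-AF9-ieGFP and the interaction in 1 fit of all 10, in which the time is not a term. Each SE from edgeR is the absolute log2 fold change divided by the square root of the F statistic of the test. The fit was tested on simulated data in which a change had the same size in every clone and was larger than most changes of the members. That simulation does not cover smaller changes or changes that differ between clones.

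DOX and untreated libraries of MLL-AF9-i139 are paired by the clone number in the labels. Deviations from the group means correlated over 19223 genes with r = 0.378, 0.285 and 0.411 within clones 1, 2 and 3, and with -0.178 on average between clones. CPM values are normalized by TMM factors, and log2 CPM used a prior count of 2. P-values in MLL-AF9-i139 measure the spread between picked clones or, with the block, the spread of their differences with DOX. Those of MLL-AF9-ieGFP and of the interaction use 1 spread estimated over all 10 libraries. It holds the MLL-AF9-i139 clones as well as the cultures of the 1 MLL-AF9-ieGFP clone. Counting error only bounds the precision of low genes.

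The members, the gene lists and the tests were chosen with earlier results of these data known. Values per library are given for the members with an adjusted p under 0.05 with the clone as a block, and for the transcription factor list Tfeb, Tfe3, Mitf and Rragd are always named with, in each pathway list, up to 3 higher and 3 lower genes of lowest p, some of which are not reported here. Galc, Ctss, Ctsh and Map1lc3a were singled out after their values were seen. Gene positions and 3′ UTRs came from a later GENCODE release of the same build than the one the counts were made with, and strand was not stated for the counting, so that reads of overlapping genes cannot be told apart. The alternatives were other size factors, other filters, DESeq2, the clone block, all 10 libraries in 1 fit and leaving out each clone.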

Additional observations from a re-analysis of the deposited data

How the results depend on the processing

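The number of members called with DOX in MLL-AF9-i139, 0 without the clone block, was 20 with the replicate block, 13 with DESeq2, 8 with all 10 libraries in 1 fit and 5 with no filter. It ranged from 0 to 33 when each clone was left out, and was 3, 7 and 37 without clone 1, 2 or 3 with the block. Over all genes, 12 calls became 2381 with the block, 1556 with DESeq2, 1234 with all 10 libraries, 562 with no filter and 6 with the filter of edgeR's filterByExpr. Leaving out each clone gave 0 to 3981 calls, and with the block 324, 580 and 7974 without clone 1, 2 or 3. Members called in the interaction ranged from 0 to 22 when a library or clone was left out, with 22 without clone 3 (background 2011 of 19753 genes). In MLL-AF9-ieGFP 0 members were called under every alternative run, and the block changed no call of a member there or in the interaction, while over all genes it moved the interaction from 1 call to 38. The median log2 fold change of the members lay between 0.37 and 0.58 in all alternatives. Among single members, only Sgsh changed sign, from -0.01 to 0.0190 without clone 2, or 0.0234 with the block. Leaving out each clone without the block, its log2 fold change ranged from -0.0493 to 0.0190. The cause of these shifts was not tested. Ctss, Ctsh and Map1lc3a had too few counts to be judged at this depth.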
